A study of Mus musculus with 2 samples.

Results

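Cytochrome P450 enzymes, encoded by the Cyp genes, are haem proteins that insert an oxygen atom into sterols, fatty acids, hormones, vitamins and foreign compounds. The genes described here are all genes of the deposited tables that GENCODE lists as protein-coding in mouse with a symbol of Cyp followed by a digit. They number 100, of 43346 mouse genes and 21474 protein-coding genes in all, and fall into 17 families and 40 subfamilies. They were measured by total RNA-seq in livers of B6NCrl mouse embryos at embryonic day 11.5. There was 1 group of 2 libraries and no control, so the values describe the tissue and the spread between its 2 pools. Replicate 1 was a pool of 109 embryos. For replicate 2 the labels also name a pool, but its size is not given. Both pools mixed the sexes. Each library was made from 10 ng of RNA with spike-in controls added, by what the labels call a Smart-seq procedure, which amplifies small amounts of RNA. The labels name no transgene and no treatment.

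Estimated counts summed to 34344230 in replicate 1, against 31477397 in replicate 2. Levels are given as TPM, a share of all transcripts of a library that allows for transcript length. Where 2 values follow a gene without further words, replicate 1 comes before replicate 2. Spike-ins took 14.6% of TPM in replicate 1 and 11.1% in replicate 2, which lowers the TPM of every gene a little more in replicate 1. The labelled tissue was checked against its markers: all 6 hepatoblast markers were above a TPM of 1 in both libraries, with Afp at 4698 and 5457 TPM, as were all 5 erythroid, all 4 macrophage, all 4 endothelial and all 4 mesenchymal markers. Of the adrenal and gonad markers, 1 of 5 was (Hsd3b1), and Nr5a1, which defines those tissues, stood at 0.0800 and 0.200 TPM. All 4 heart markers were also detected, with a sum of 189 TPM in replicate 1 against 80.9 TPM in replicate 2. Of the lung and gut markers 1 of 4 was detected, Barx1, at 16.1 and 18.0 TPM, and of the mast cell markers 1 of 5, Cpa3, at 1.72 and 2.78 TPM.

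In the adult liver, P450s of families 1, 2 and 3 oxidise drugs and other foreign compounds, and those of family 4 hydroxylate fatty acids and eicosanoids. Other families each have a fixed task: Cyp51 acts in cholesterol synthesis, Cyp7, Cyp8, Cyp27a, Cyp39 and Cyp46 turn cholesterol into bile acids and oxysterols, Cyp26 removes retinoic acid, and Cyp11, Cyp17, Cyp19 and Cyp21 make steroid hormones. Most microsomal P450s take electrons from the reductase Por, and the mitochondrial ones from the ferredoxin Fdx1.

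What makes a P450 recognisable is the loop that holds the haem iron through a cysteine. Its signature of 10 residues has a phenylalanine at place 1, glycines at places 4 and 10, an arginine at place 6 and the cysteine at place 8. The longest coding sequence of each gene was translated, and other transcripts were not searched. The signature was found in 91 of the 100 Cyp genes and in 1 of 21462 other protein-coding genes. That was Tbxas1, thromboxane synthase, which is itself a P450. The 30 bases that encode the loop are shown for the 4 most abundant members and for 3 others that differ in it or come up below, from GENCODE coding sequence on GRCm38, 5′ to 3′ on the coding strand with the cysteine codon in capitals.
Cyp51: tttggagctgggcgtcatcgtTGTgttgga
Cyp2c68: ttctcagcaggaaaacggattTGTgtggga
Cyp20a1: ggcttctcaggcacatgggaaTGTccagaa
Cyp1b1: ttctcagtgggcaaacggaggTGCatcggt
Cyp39a1: tttggaggcgggaagttccagTGTcctgga
Cyp27a1: ttcggctatggggttcggtctTGCctgggt
Cyp2s1: tactccttaggtaagcgagtcTGCctggga

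The stretches lie at chr5:4083284-4086469 on the minus strand for Cyp51, chr19:39689234-39699270 (minus) for Cyp2c68, chr1:60386960-60386989 (plus) for Cyp20a1, chr17:79710309-79710338 (minus) for Cyp1b1, chr17:43731982-43732011 (plus) for Cyp39a1, chr1:74737320-74737349 (plus) for Cyp27a1 and chr7:25803740-25803925 (minus) for Cyp2s1. All are exonic coding sequence, and those of Cyp51, Cyp2c68 and Cyp2s1 run over an exon junction, so their span includes an intron. The cysteine is residue 449 of 503 in Cyp51, 435 of 491 in Cyp2c68 and 409 of 462 in Cyp20a1. In the longest coding sequences, Cyp51, Cyp39a1, Cyp7a1 and Cyp7b1 lack the arginine of the signature, and Cyp2s1 and Cyp2b10 lack the phenylalanine. Cyp8b1 lacks both, and Cyp3a59 lacks the last glycine. Cyp20a1 lacks the phenylalanine, the arginine and the last glycine, so the stretch shown is only its closest window. The 9 genes without the full signature include 4 of the 16 detected members and 5 of the 84 others. The stretch of Cyp2c68 is shared letter for letter with Cyp2c67, Cyp2c40 and Cyp2c69, 4 genes in all, which matters for its level as given below.

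Few P450 genes reached a TPM of 1 in both libraries. Of the 100 Cyp genes, 16 (16.0%) had a TPM of at least 1 in each library and are called detected, beside 56.6% of all protein-coding genes. A further 3 reached it in 1 library. At the other end, 49 Cyp genes, 49.0%, had 0 counts in both libraries, beside 21.1% of all protein-coding genes. The remaining 32 had counts and a TPM under 1 in both, with mean TPM from 0.00500 to 0.680, and 12 of them had 3 counts or fewer in each library. Over all 100 the median TPM was 0.00500 in replicate 1 and 0 in replicate 2, against 2.82 and 2.87 over protein-coding genes. Fewer cells of a type and less RNA per cell cannot be told apart in bulk tissue, here or below. A count of 0 allows up to 3 counts, which for these 49 genes is worth 0.0336 to 0.135 TPM in replicate 1, and in replicate 2 0.0385 to 0.155 TPM. Such limits and the intervals computed from counts cover counting error only. For 20 of the 49 the deposited credibility interval reached above this limit in at least 1 library, up to 0.623 TPM in replicate 1 and 0.713 in replicate 2 for Cyp2a5.

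**Figure D1:**
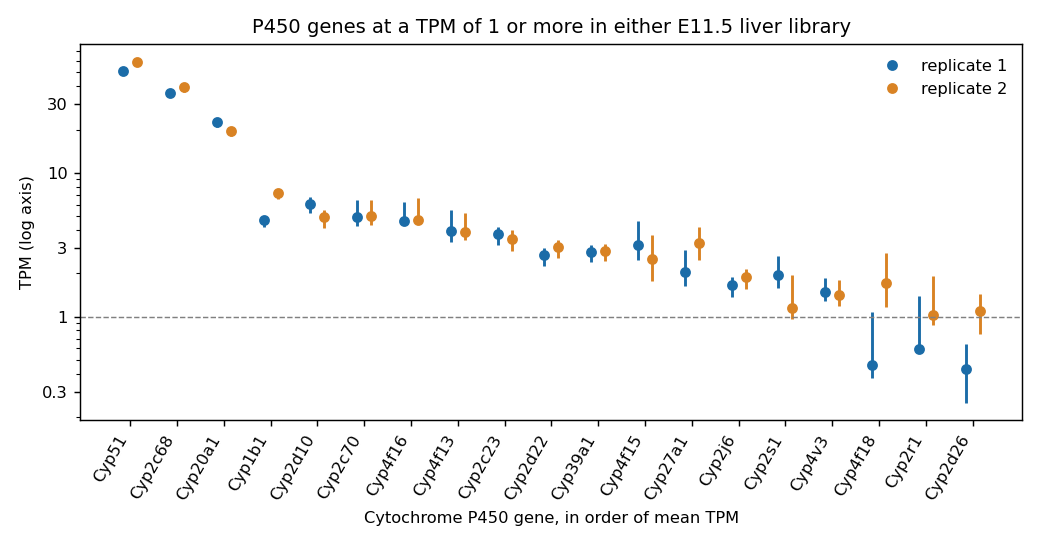
TPM (log axis) of the 19 Cyp genes at a TPM of 1 or more in either library, in order of mean TPM, with replicate 1 left of replicate 2 for each gene; bars are the deposited credibility intervals and the dashed line is a TPM of 1. Cyp51, Cyp2c68 and Cyp20a1 stand above the other 16 in both libraries, and the last 3 genes lie under the line in replicate 1.

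The family's RNA was held by a few members. The summed TPM of all 100 was 162 in replicate 1 and 174 in replicate 2 (168 ± 8.54, SD, n = 2), which is 0.0162% and 0.0174% of TPM. Cyp51, Cyp2c68 and Cyp20a1 together made 67.6% of that sum in replicate 1 and 67.9% in replicate 2, and the 5 highest made 74.2% and 74.9%. The 3 leaders were also apart from each other: between neighbours in the order of the 19 genes, 3 of 18 pairs kept their order in both libraries with intervals that did not overlap. Those were Cyp51 over Cyp2c68 (1.45-fold), Cyp2c68 over Cyp20a1 (1.79-fold) and Cyp20a1 over Cyp1b1 (3.54-fold). From Cyp1b1 down, no neighbours were apart by that rule, although 116 of all 171 pairs were. The plot of levels shows the gap below Cyp20a1.

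Cyp51, the lanosterol demethylase of cholesterol synthesis (ENSMUSG00000001467.4, chromosome 5, 4081145 to 4104746), was the most abundant member. It had 4971 counts and 50.8 TPM in replicate 1 and 5057 counts and 58.8 TPM in replicate 2 (54.8 ± 5.72 TPM, SD, n = 2), and ranked 2577 among the protein-coding genes. The deposited intervals, 48.5 to 52.0 TPM in replicate 1 against 56.1 to 59.9 TPM in replicate 2, did not overlap, so the pools differed by more than that error. The enzymes around it were present throughout. All 12 other listed enzymes of sterol synthesis were detected, against 56.6% of all protein-coding genes. Among them were Msmo1, the next demethylating oxidase (101 and 128 TPM), and Sqle, squalene epoxidase (92.3 and 109 TPM). In TPM both stood higher in replicate 2, as Cyp51 did. Spike-ins took a smaller share of that library, and their part in these differences was not tested. By counts of mouse genes scaled for library size, Cyp51 was 1.10-fold higher there.

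**Figure D2:**
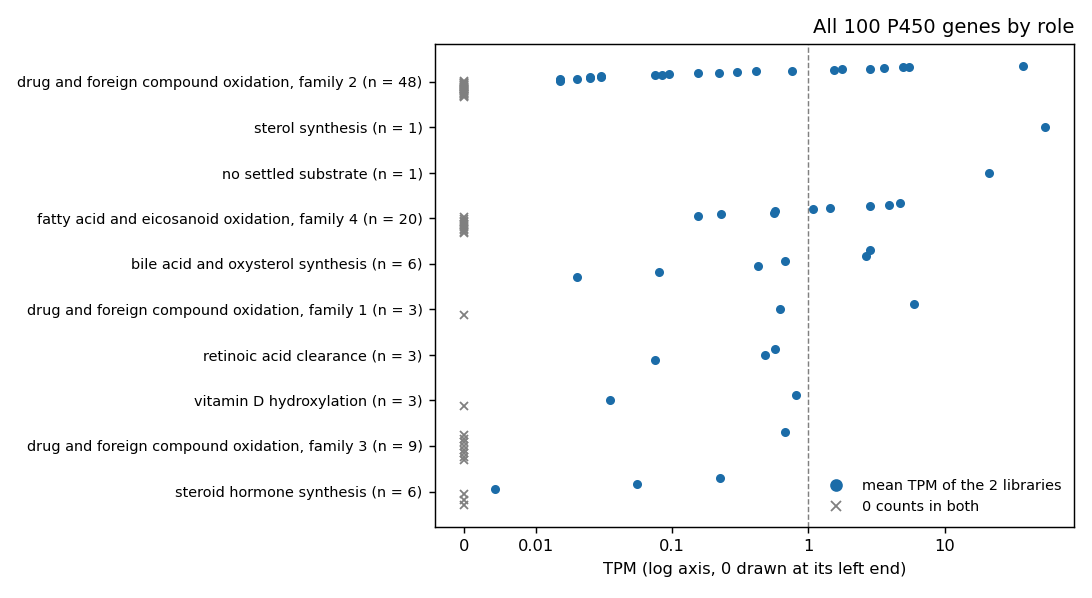
Mean TPM of the 2 libraries (log axis) for each of the 100 Cyp genes, in rows by role; crosses at the left end are genes with 0 counts in both libraries and the dashed line is a TPM of 1. Family 2 and the bile acid row span the widest range among genes with counts, and no gene of the retinoic acid, vitamin D, family 3 or steroid hormone rows passes the line.

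Among the drug-oxidising families, family 2 had the largest sum. Of 48 members, 7 were detected and 25 had 0 counts, and the sum over all 48 was 58.9 TPM in replicate 1, against 61.5 TPM in replicate 2. Cyp2c68 (ENSMUSG00000074882.3, chromosome 19, 39688834 to 39741054, minus strand) alone had 36.0 and 39.4 TPM (1511 and 1443 counts) and was the second most abundant P450, at rank 3546 among protein-coding genes. Cyp2c70 (chromosome 19, 40153353 to 40187333), which in mice makes muricholic acids, the rodent-type bile acids, had 4.92 and 4.98 TPM. Cyp2c23, an arachidonic acid epoxygenase, had 3.74 and 3.47 TPM. The other 12 members of the tandem Cyp2c group on chromosome 19 stayed under a TPM of 1, with Cyp2c67 highest at 0.370 and 0.230 TPM and 7 at 0 counts. So within the Cyp2c genes the 2 libraries gave the same picture, with 1 gene far above the rest.

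In subfamily Cyp2d, Cyp2d10 had 6.09 and 4.90 TPM and Cyp2d22 had 2.67 and 3.04 TPM. Both were detected, while Cyp2d26 passed the threshold in replicate 2 alone, with 0.430 TPM in replicate 1 and 1.09 TPM in replicate 2. Cyp2j6, of a subfamily of epoxygenases, had 1.66 and 1.87 TPM. Cyp2s1, a P450 known mainly from tissues other than liver, had 1.96 TPM in replicate 1 and 1.14 TPM in replicate 2. Cyp2u1, which hydroxylates long-chain fatty acids, had 0.350 and 0.480 TPM. Some family 2 enzymes well known from adult liver were near or at 0. Cyp2e1, the ethanol-oxidising form, had 7 and 1 counts, and all 5 Cyp2b genes, among them the phenobarbital-inducible Cyp2b10, had none. Between these extremes lay Cyp2j9 (6 and 16 counts), Cyp2a12 (2 and 9 counts), Cyp2j5 (4 counts in each) and Cyp2d9 (2 and 4 counts). Cyp2d11, Cyp2t4, Cyp2w1, Cyp2c65 and Cyp2ab1 had 2 counts each in replicate 1 and none in replicate 2, and Cyp2c40, Cyp2c69 and Cyp2c37 had no more than 1 count in a library. None of these 12 genes passed a TPM of 0.340 in either library.

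Family 1 was represented by Cyp1b1 (ENSMUSG00000024087.3, chromosome 17, 79701537 to 79715061), which oxidises oestrogens and polycyclic hydrocarbons and whose loss in humans causes congenital glaucoma. Its level was 4.69 TPM in replicate 1, against 7.24 TPM in replicate 2 (609 and 820 counts). Cyp1a1, the form classically induced by dioxin, had 0.510 and 0.740 TPM. Cyp1a2, its neighbour that oxidises caffeine in adult liver, had 0 counts, where 3 counts would be worth 0.0648 and 0.0743 TPM. Cyp1b1 was therefore the main family 1 transcript in both pools.

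Family 3 was nearly without counts. Of its 9 genes only Cyp3a13, which sits away from the others, had counts, with 53 in replicate 1 and 41 in replicate 2 (0.720 and 0.640 TPM). The 8 genes of the Cyp3a cluster on chromosome 5 had 0 counts in both libraries. They include Cyp3a11, a leading drug-oxidising P450 of adult mouse liver (3 counts would be worth 0.0518 and 0.0593 TPM), and Cyp3a16, known as a form of fetal mouse liver (0.0712 and 0.0816 TPM).

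In family 4, whose members hydroxylate the ends of fatty acids and leukotrienes, the Cyp4f genes stood out from the Cyp4a genes. Of 20 members, 4 were detected and 11 had 0 counts. Cyp4f16 had 4.65 and 4.69 TPM, Cyp4f13 had 3.96 and 3.85 TPM, and Cyp4f15 had 3.13 and 2.52 TPM. These 3 lie in 1 cluster on chromosome 17, and their order in the libraries was the same. Cyp4v3, the counterpart of the human gene mutated in Bietti crystalline dystrophy, an eye disease, had 1.49 and 1.41 TPM. Cyp4f18, a leukotriene B4 hydroxylase of mouse neutrophils, had 0.460 TPM in replicate 1 and 1.72 TPM in replicate 2, a wider gap than that of its counts (19 and 38). Below the threshold in both libraries were Cyp4f17 (31 and 14 counts), Cyp4b1 (25 and 17 counts), Cyp4x1 (24 and 21 counts) and Cyp4f39 (4 and 7 counts). All 8 Cyp4a genes, the PPAR-alpha-inducible fatty acid hydroxylases of adult liver and kidney, had 0 counts. The gene of that receptor, Ppara, had 1.91 and 2.66 TPM.

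Cyp20a1, a P450 with no settled substrate (ENSMUSG00000049439.9, chromosome 1, 60343323 to 60388060), was the third most abundant. It had 1229 counts and 22.5 TPM in replicate 1, against 934 counts and 19.7 TPM in replicate 2 (21.1 ± 1.99 TPM, SD, n = 2). As shown with the sequences, it is also the member whose haem loop departs most from the signature.

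Of the 6 genes that turn cholesterol into bile acids and oxysterols, 2 were detected and none had 0 counts in both libraries. Cyp39a1 (chromosome 17, 43667425 to 43751431), an oxysterol hydroxylase, had 2.82 and 2.87 TPM, and Cyp27a1 (chromosome 1, 74713574 to 74737892), the mitochondrial sterol hydroxylase that opens the alternative bile acid pathway, had 2.04 TPM in replicate 1 and 3.23 TPM in replicate 2. Cyp46a1, the cholesterol hydroxylase known from brain, had 0.880 and 0.480 TPM, and Cyp7b1, an oxysterol hydroxylase, had 0.430 TPM in each. Cyp7a1, the rate-limiting enzyme of classical bile acid synthesis, had 7 and 8 counts (0.0700 and 0.0900 TPM), and Cyp8b1, needed for cholic acid, had 1 count in each library. Neither of these enzymes of the classical route was detected. Of 11 other listed genes of bile acid synthesis, 5 were detected (45.5%, against 56.6% of all protein-coding genes). The highest were Scp2, a sterol carrier (190 and 204 TPM), Hsd17b4, a peroxisomal enzyme (46.3 and 51.6 TPM), and Slc27a2, an acyl-CoA synthetase (31.1 ± 1.51 TPM, SD, n = 2). Baat, which conjugates bile acids with amino acids, had 0.190 TPM in replicate 1 and 0 in replicate 2.

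The 3 Cyp26 genes, whose enzymes clear retinoic acid, all had counts and all stayed under a TPM of 1. Cyp26b1 had 78 and 49 counts (0.660 and 0.470 TPM), Cyp26a1 had 21 and 18 counts (0.490 and 0.480 TPM), and Cyp26c1 had 3 counts in each. Of 12 listed genes of retinoid conversion, transport and sensing, 11 were detected (91.7%, against 56.6% of all protein-coding genes). They include the retinoic acid carrier Crabp1 (30.5 and 29.8 TPM). Aldh1a2, which makes retinoic acid, had 17.3 ± 3.25 TPM (SD, n = 2), and Dhrs3, which turns retinal back into retinol and so works against that step, had 32.6 and 36.3 TPM.

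Vitamin D and steroid hormone P450s were low or at 0. Cyp2r1, which carries out the first hydroxylation of vitamin D in liver, had 22 and 25 counts, listed as 0.590 and 1.03 TPM. Cyp27b1, the activating enzyme of kidney, had 2 counts in each library and Cyp24a1, the inactivating one, had none. Of the 6 steroid hormone genes, Cyp17a1 (9 and 4 counts), Cyp11a1 (1 and 4 counts) and Cyp11b1 (1 and 0 counts) had some, and Cyp11b2, Cyp19a1, the aromatase, and Cyp21a1 had none. None of these 9 genes was detected in both libraries. Of 6 other vitamin D genes 3 were detected, beside 56.6% of all protein-coding genes. The highest was Dhcr7, which uses up the vitamin's precursor (50.9 and 60.2 TPM). Next came the binding protein gene Gc (11.1 and 9.48 TPM) and the receptor partner Rxra (3.98 and 4.42 TPM). Of 9 other steroid genes 4 were detected (44.4%, beside the same 56.6%). These were led by Hsd3b6 (21.4 and 23.8 TPM), Hsd11b2 (12.4 and 11.1 TPM) and the steroid reductase Srd5a1 (5.92 and 6.69 TPM). Hsd3b1 was close to Srd5a1 (6.13 and 6.33 TPM). Hsd17b3 had 0 counts.

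Genes in tandem arrays were more often at 0 counts than genes that stood alone. With members no more than 500 kb from the next joined, 76 of the 100 genes fell into 10 clusters and 24 stood alone. Of the 24 lone genes 7 were detected (29.2%) and 3 had 0 counts (12.5%). Of the 76 clustered ones 9 were detected (11.8%) and 46 had 0 counts (60.5%). Over all protein-coding genes 56.6% were detected and 21.1% had 0 counts. The median TPM of lone genes was 0.445 in replicate 1 and 0.475 in replicate 2, and that of clustered ones was 0 in each library. Every one of the 7 clusters of 5 or more genes held at least 3 genes at 0 counts. In the Cyp2c cluster (14 genes over 1180 kb) 2 were detected, in the Cyp2a to Cyp2t cluster on chromosome 7 (13 genes) 1, in the Cyp2d cluster (8 genes) 2, in the Cyp2j cluster (8 genes) 1 and in the Cyp4f cluster (8 genes) 3. The Cyp4a, Cyp4b and Cyp4x cluster (10 genes) and the Cyp3a cluster (8 genes) held none.

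**Figure D3:**
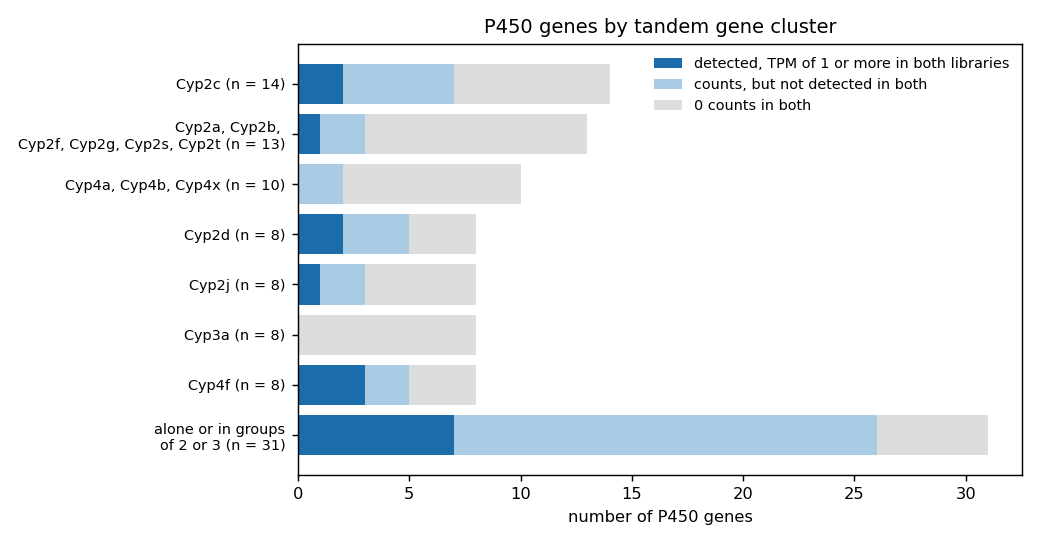
Number of Cyp genes in each tandem cluster of 5 or more genes, and in a last bar all 31 others, split into detected genes (a TPM of at least 1 in each library), genes with counts but not detected in both, and genes with 0 counts in both. The 8 Cyp3a genes are all at 0 counts, and the last bar has the smallest share at 0, with 5 of 31.

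Clustered P450 genes resemble each other, and reads that match several copies are shared out by a model. Levels of close copies therefore depend on that model. Among the 16 detected members 3 have a family member over 90% identical in coding sequence. Cyp2c68 is 98.1% identical to Cyp2c40, which had 0.0300 TPM in each library. Of the 50-base windows of Cyp2c68 coding sequence, 54.5% occur in the longest coding sequence of no other member. Untranslated parts and Cyp pseudogenes were not searched. Cyp2d10 is 94.7% identical to Cyp2d11 (0.0600 and 0 TPM) with 59.6% of its windows unique, and Cyp4f16 is 95.7% identical to Cyp4f37 (0 counts) with 63.4% unique. The deposited posterior SD of the count was 1.41 and 1.04 for Cyp2c68, 0.860 and 0.520 for Cyp2d10, and 0.330 and 0.340 for Cyp4f16. Deposited intervals of the copies reached 0.890 and 1.00 TPM for Cyp2c40, 0.193 and 0.101 for Cyp2d11, and 0.0491 and 0.0561 for Cyp4f37. Those of Cyp2c67 reached 0.572 and 0.423 TPM, and those of Cyp2c69 0.141 and 0.0793 TPM. The posterior SDs of the 3 detected genes were small beside their counts, while the intervals of Cyp2c40 reached far above its 0.0300 TPM. Whether another model would split these levels otherwise was not tested. Cyp51, Cyp20a1, Cyp1b1, Cyp2c70, Cyp2c23, Cyp39a1, Cyp27a1, Cyp2s1 and Cyp4v3 had only windows that were unique among these coding sequences. Some members, Cyp51 and Cyp20a1 among them, have no other member in their family. Over those that do, median identity to the nearest was 79.7% for detected genes (13 of 16) and 87.7% for those not detected (78 of 84). For genes at 0 counts, which are part of those not detected, it was 92.7% (46 of 49).

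Most detected members had 1 main transcript, which was protein-coding. Of the 16, 7 have 1 transcript in the deposited tables, and of the 9 with several, 7 had the same one at 50% or more of the gene in both libraries. The main transcript of Cyp51 made 98.7% of its gene in replicate 1 and 99.4% in replicate 2. That of Cyp20a1 made 99.1% and 86.8%, with a transcript annotated for nonsense-mediated decay at 0 in replicate 1 and 13.2% in replicate 2. The exceptions were Cyp4f13, whose leading transcript had 44.3% and 49.7%, and Cyp4f15, whose leading one had 35.5% and 61.4%. A retained-intron transcript made 34.4% of Cyp27a1 in replicate 1 and 26.1% in replicate 2. Another retained-intron transcript of that gene stood at 0 in replicate 1 and 19.6% in replicate 2. Such a transcript also made 34.3% and 16.9% of Cyp2c70. In Cyp4f15 it made 35.4% in replicate 1, close to the leading transcript there, and 0 in replicate 2. The transcript with the highest share over both libraries was protein-coding in all 16.

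The genes that P450s depend on were present throughout. All 8 listed electron donors were detected, against 56.6% of all protein-coding genes. Cyb5a, cytochrome b5, had 344 and 350 TPM, its reductase Cyb5r3 had 146 and 147 TPM, and Pgrmc1, a haem-binding P450 partner, had 115 and 127 TPM. Por had 36.7 and 39.6 TPM, Fdx1 had 38.9 and 36.3 TPM and its reductase Fdxr, the lowest of the 8, had 19.6 and 20.1 TPM, which is near the level of Cyp20a1. Haem enzymes, which the tissue's red cell precursors also use, were all detected (12 of 12, beside the same 56.6%). Among them were Alad (357 and 394 TPM) and Urod (262 and 282 TPM). Both P450s without a Cyp symbol were detected: Tbxas1 had 9.07 and 9.24 TPM, and Ptgis, prostacyclin synthase, had 5.81 and 5.99 TPM.

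**Figure D4:**
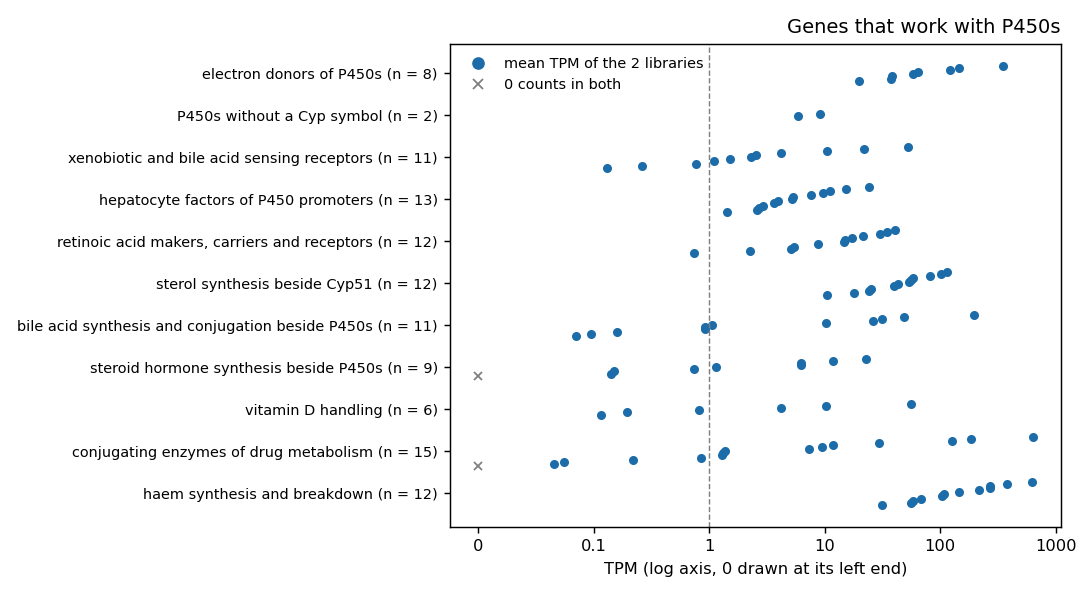
Mean TPM of the 2 libraries (log axis) of each gene in 11 lists of genes that act with, upstream of or after P450s; crosses at the left end are genes with 0 counts in both libraries and the dashed line is a TPM of 1. Every electron donor, hepatocyte factor, sterol synthesis and haem gene and both P450s without a Cyp symbol lie right of the line, and the other 6 lists straddle it.

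The factors and receptors that drive P450 genes in the adult were present to different degrees. All 13 listed hepatocyte factors were detected, beside 56.6% of all protein-coding genes. They were led by Foxa3 (22.9 and 25.9 TPM), Hnf4a (14.4 and 16.1 TPM) and Cebpb (10.6 and 11.6 TPM). Of 11 listed receptors and cofactors that sense foreign compounds, oxysterols or bile acids, 7 were detected (63.6%). Over all protein-coding genes the share was 56.6%. The highest were the oxysterol receptor Nr1h2 (49.4 and 55.8 TPM), Arnt, the partner of the dioxin receptor (20.2 and 23.9 TPM), and Nr1h3 (11.2 and 9.84 TPM). The drug sensor Nr1i2, known as PXR, which drives Cyp3a genes, had 1.39 and 1.63 TPM, the dioxin receptor Ahr had 2.38 and 2.71 TPM, and Nr1i3, known as CAR, which drives Cyp2b genes, had 0.130 TPM in each library. Of 15 conjugating enzymes, which act after P450s, 10 were detected (66.7%, beside 56.6% of all protein-coding genes). Gstp1 (633 and 641 TPM) and Gstm1 (173 and 196 TPM) were among them, and Gsta1 had 0 counts.

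At a mean of 100 or more counts, P450 counts scaled for library size differed by no more than 1.45-fold between the pools. With library sizes equalised by TMM, 31 Cyp genes had a mean of 10 or more counts, and their median log2 ratio of replicate 1 over replicate 2 was 0.06, beside -0.01 over protein-coding genes. At least 2-fold apart were 4 of the 31, beside 3.07% of protein-coding genes at the same minimum. Cyp4f17 was higher in replicate 1 (31 counts in replicate 1, 14 in replicate 2, log2 ratio 1.01, 95% exact binomial interval 0.08 to 2.06), beside 1.95% of protein-coding genes in that direction. Cyp4f18 (19 and 38 counts, -1.09, -1.99 to -0.28), Cyp2d26 (17 and 38 counts, -1.25, -2.19 to -0.41) and Cyp2j9 (6 and 16 counts, -1.45, -3.17 to -0.10) were higher in replicate 2, beside 1.12% of protein-coding genes in that direction. All 4 were among the 18 members with a mean of 10 to 100 counts, where 14.4% of protein-coding genes were 2-fold apart. None of the 13 members with a mean of 100 or more counts was.

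Smaller differences that exceeded counting error were also seen. The interval excluded 0 for 11 of the 31 genes, the 4 above among them, beside 40.7% of protein-coding genes at the same minimum. By depth, this was so for 7 of the 18 members with a mean of 10 to 100 counts, beside 24.2% of protein-coding genes, and for 4 of the 13 with a mean of 100 or more, beside 44.8%. Cyp1b1 was 1.45-fold higher in replicate 2 (log2 ratio -0.54, -0.69 to -0.39), the largest fold among members with a mean of 100 or more counts, and Cyp51 was 1.10-fold higher there (-0.14, -0.19 to -0.08). Cyp20a1 was 1.22-fold higher in replicate 1 (0.28, 0.16 to 0.41), and Cyp2d10 was 1.32-fold higher there (0.40, 0.11 to 0.69). Cyp2c68 did not differ beyond its interval (-0.05, -0.15 to 0.06). The heart markers moved between the same pools, with Myl7 at 119 and 58.9 TPM, Tnnt2 at 28.0 and 10.3 TPM, Nppa at 25.1 and 5.79 TPM and Myh6 at 17.1 and 5.91 TPM, all 4 higher in replicate 1. Their part in the differences of P450 genes was not tested.

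**Figure D5:**
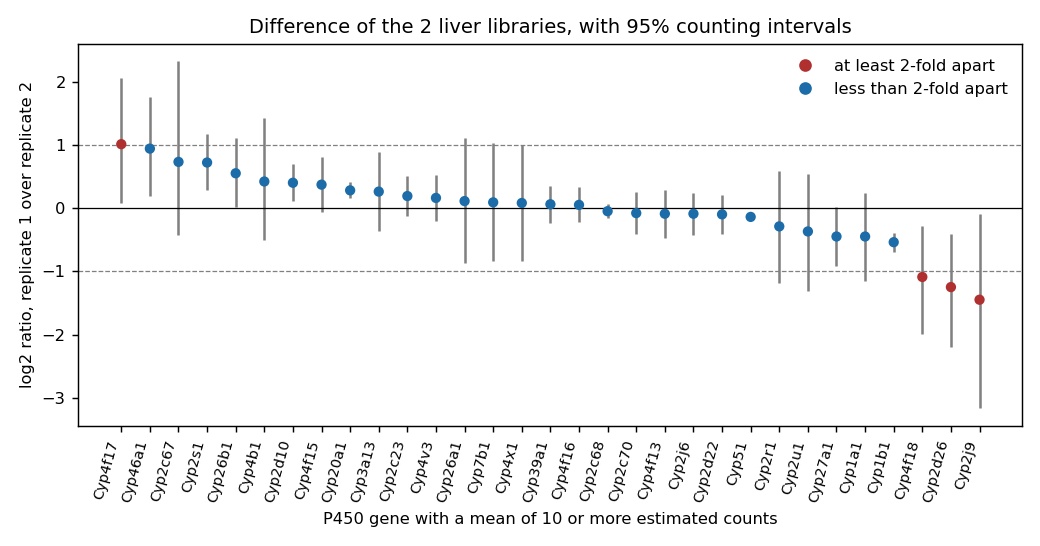
Log2 ratio of replicate 1 over replicate 2 after TMM scaling for the 31 Cyp genes with a mean of 10 or more estimated counts, with 95% exact binomial intervals of the counts; dashed lines mark 2-fold. Only Cyp4f17 at the left and Cyp4f18, Cyp2d26 and Cyp2j9 at the right pass the lines, each with an interval that reaches back inside them.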

How the data were processed

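Total RNA of 2 pools of embryonic livers was sequenced. A mirVana kit was used and mm10 was the assembly, per the labels; the deposited text notes name GENCODE release M4. Which aligner and quantifier were used: not given in the sources used here. Per the file headers, the authors deposited estimated counts, TPM, FPKM, the percent of a gene held by each transcript, posterior means and signal bounds, that is the lower and upper ends of credibility intervals of the TPM, without their level. These intervals stand around the posterior mean, not the TPM.

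GENCODE release M21 (GRCm38, which is mm10) gave symbols, coordinates and coding sequences; 42462 of 43346 genes matched. The Cyp genes and all lists were chosen with earlier results of these data known. Named were the members at a TPM of 1 or more in either library, the 5 highest below, members of the role groups, members 2-fold apart, and of each list the 3 highest genes and those at 0 counts; other list genes, markers among them, were named after their values were seen. A few list genes that qualified are not reported here. Role groups follow the family or subfamily of the symbol: Cyp2r1 and Cyp27b1 stand with vitamin D and Cyp27a1 with bile acids. With 1 group and no control, nothing was tested between conditions, and p-values are not given. The labels call the libraries biological replicates from pools.

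Detection meant a TPM of at least 1 in each library. Ratios used estimated counts of mouse genes, rounded for edgeR 4.0.16 (TMM) and DESeq2 1.42.0 (size factors, an alternative) in R 4.3.3. They used a pseudocount of 0.5 and a mean of 10 or more counts. The procedure was also run on simulated data. The outcome of that run is not given here, so the run is no evidence for the 4 Cyp genes called 2-fold apart. Haem loops were searched in the translated longest complete coding sequence of each gene, and identities came from global alignment of those sequences (Biopython 1.88). Python 3.11.15, pandas 2.3.3, scipy 1.17.1 and matplotlib 3.10.9 did the rest. The 500 kb gap, the 50-base windows and the search for the closest haem loop were chosen after values were seen.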

Additional observations from a re-analysis of the deposited data

Results flagged for a closer look

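Of 16 Cyp features in the tables that are not protein-coding, none entered the comparisons, and 12 had 0 counts in both libraries. Signal above the limit of 3 counts that a count of 0 allows appeared in 2 of them in both libraries. The pseudogene Cyp4b1-ps2, 333 bases long, had 18.9 counts and 3.13 TPM in replicate 1 and 5.77 counts and 1.10 TPM in replicate 2, where 3 counts are worth 0.497 and 0.569 TPM. The antisense gene Cyp4x1os had 9 counts and 0.180 TPM in replicate 1 and 7 counts and 0.160 TPM in replicate 2, where 3 counts are worth 0.0610 and 0.0699 TPM. Reads of a pseudogene and its parent, or of an antisense gene and its partner, cannot be told apart here, since the sources used do not give the counting rule.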

How the results depend on the processing

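Of 44 alternatives over 7 results, 32 stayed near the reported value and 12 moved. Detected genes numbered 33 at a TPM of 0.1 and 3 at 5, against 16. The median over all 100 Cyp genes, 0.00250 TPM, became 0.0950 TPM from posterior means and 0.897 TPM over those with at least 3 counts in both libraries, and the sum, 168 TPM, was 192 TPM relative to mouse genes alone and 123 in FPKM. The 5 highest held 70.9% by posterior mean and 80.6% by counts, against 74.5%. Genes 2-fold apart numbered 0 at a mean of 100 counts, 15 with no minimum and 2 with a pseudocount of 5, against 4, and the median log2 ratio was -0.05 at a mean of 100, where a shift over 0.1, a limit set after seeing the data, counted as moved. With 1 library left out, results ran from 16 to 19 genes detected, 0 to 0.00500 TPM for the median, 162 to 174 TPM for the sum, 74.4 to 74.9% for the 5 highest, taken here as the 5 highest of that library, and 14 to 15 genes with a main transcript. The cause was not tested where a value moved. No paired analysis was possible because there is 1 group. A planned check of CpG-rich promoters is void and was not run, since 77 of 100 genes had a promoter window, under the 80% needed.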
